A study of Schizosaccharomyces pombe with 2 samples.

Results

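The genes described here encode subunits of the proteasome of fission yeast (Schizosaccharomyces pombe). They were taken as the gene probes whose systematic name carries, in the reference annotation, a symbol of the form rpn, rpt, pre or pup followed by a number, or the symbol pts1. The rule found 31 genes among the 5057 genes on the array, which is every annotated gene with such a symbol: 12 of the core particle, 10 of the base and 9 of the lid. All 31 passed the filter on dim probes and were tested. The compared strains were ESY173, which lacks mga2 (mga2Δ below), and KGY425, the control (WT below). Both were sampled during logarithmic growth in complete YES medium after 1.5 h in an anaerobic chamber. KGY425 is labelled wild type, although the design text lists sre1 as deleted in both strains. Mga2 activates transcription of lipid genes, and sre1 encodes the sterol-responsive factor SREBP of this yeast. No further allele of either strain is named in the labels, and samples with oxygen were not analysed here.

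The proteasome degrades proteins that carry chains of ubiquitin. Its core particle is a barrel of stacked rings: the outer rings of alpha subunits form a gate, and the inner rings of beta subunits hold the proteolytic sites inside. A regulatory particle caps the barrel. Its base contains a ring of ATPases, the Rpt proteins, that unfold substrates and thread them into the core, together with scaffold subunits and ubiquitin receptors. Its lid is built from Rpn proteins and holds the deubiquitinase that strips ubiquitin from the substrate as it enters. In budding yeast most of these genes are induced together by the transcription factor Rpn4 when proteolysis falls short. Subunit roles given below follow the budding yeast or human subunit of the same name unless stated otherwise.

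RNA of 2 biological replicate pairs was hybridised to 2 Agilent two-colour arrays, with the dyes swapped between arrays. The mga2Δ RNA was in the Cy5 channel of array 1 and the Cy3 channel of array 2. The deletion was visible in the data: the mga2 log2 ratio of mga2Δ over WT was −7.27 on array 1 and −6.13 on array 2, at least 84.95-fold lower in mga2Δ, where 0 of 3 spots on array 1 and 1 of 3 on array 2 were well above background. No sre1 spot was well above background in any channel, which does not by itself show that the gene was deleted. All spots used for the 31 subunit probes were well above background in both strains. Each mean below is over 2 arrays and each SD is between them; the number of arrays limits the precision.

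Proteasome subunit transcripts were modestly higher in mga2Δ than in WT. Of the 31 genes, 17 were raised and 0 were lowered in mga2Δ by the limma test at a Benjamini-Hochberg adjusted p of 0.05 over all 4964 genes tested. Over all genes tested, 18.4% were raised and 10.9% lowered. These calls depended on the normalization: with median centring in place of loess, 0 of the 31 genes and 2.94% of all genes tested were raised. The median log2 ratio of the 31 genes was 0.32, a 1.25-fold difference, against 0.004 over all genes tested. Mean ratios ran from 0.005 for rpn501 to 0.63 for pre4, so no gene had a negative mean. The ratio was above 0 on both arrays in 27 of 31 genes, against 40.1% of all genes tested. The differences were small: 1 of the 31 genes was at least 1.5-fold higher on both arrays, below the 7.11% seen over all genes tested. In bulk RNA of a yeast culture, more cells with a high level and more transcript per cell cannot be told apart. The 14 genes that did not pass had a positive mean ratio as well, and 7 of them had an unadjusted p under 0.05.

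**Figure D1:**
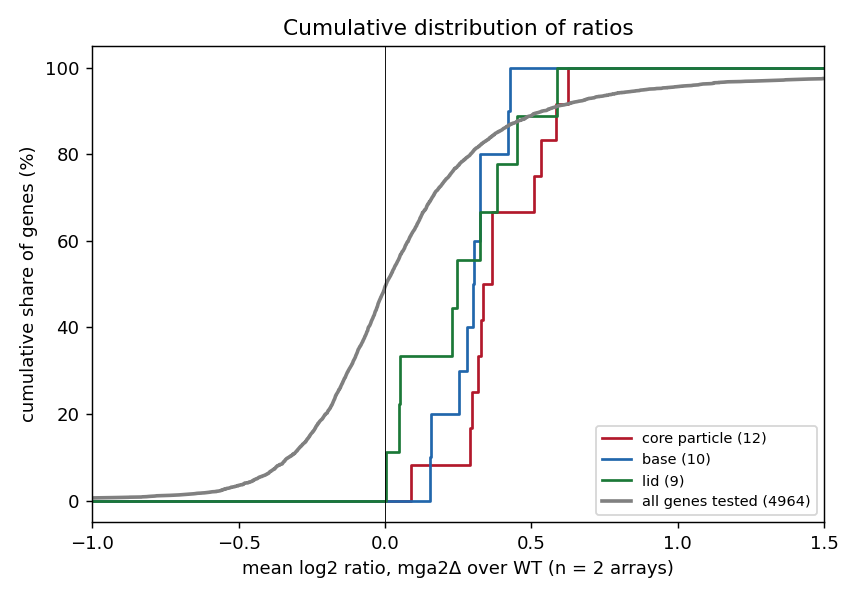
Cumulative share of genes (percent) against the mean log2 ratio of mga2Δ over WT on 2 arrays, for the 12 core particle, 10 base and 9 lid genes and for the 4964 genes tested. The 3 proteasome curves start at or above 0 and end by 0.63, whereas the curve of all genes runs past both ends of the clipped axis.

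The core particle genes stood highest, with 10 of 12 raised (83.3%, against 18.4% of all genes tested) and a median log2 ratio of 0.35. Among the 31 genes, all 6 beta subunit genes were raised (median 0.44), and 4 of the 6 alpha subunit genes were (median 0.31). The core subunit genes pam1 and scl1, which the rule does not cover, did not pass and are described below. The beta subunit gene pre4 (SPBC577.10) had the highest mean ratio in this processing, although rpn7 was higher on array 1 (0.64) and pre5 on array 2 (0.70). Its lead over rpn7 was smaller than the standard error of 0.09, and with median centring pup1 (0.45) stood above pre4 (0.39). The normalized log2 intensity of pre4 was 13.45 and 13.56 in mga2Δ on arrays 1 and 2, against 12.87 and 12.90 in WT. Both mga2Δ values lay above both WT values, as in 36.4% of all genes tested. The mean log2 ratio was 0.63 ± 0.05 (SD, n = 2 arrays, limma adjusted p = 0.00332), a 1.54-fold difference.

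In budding yeast and humans, 3 beta subunits carry the proteolytic sites. Their fission yeast genes pre3 (SPBC4C3.10c), pup1 (SPAC23D3.07) and pts1 (SPAC4A8.13c) were all raised. The pre3 gene encodes the subunit with caspase-like activity. It read 12.70 and 12.66 in mga2Δ and 12.08 and 12.21 in WT on arrays 1 and 2 (log2 intensity; mean ratio 0.53 ± 0.12, limma adjusted p = 0.00772). For pup1, the subunit with trypsin-like activity, the values were 12.10 and 12.06 in mga2Δ, against 11.49 and 11.65 in WT (0.51 ± 0.14, adjusted p = 0.00984). For pts1, the subunit with chymotrypsin-like activity, they were 12.16 in mga2Δ on both arrays, against 11.70 and 11.90 in WT (0.37 ± 0.14, adjusted p = 0.0312). In all of these both mga2Δ values lay above both WT values, as in 36.4% of all genes tested. In all of them the ratio was larger on array 1 than on array 2. The remaining beta subunits encoded among the 31 genes, like Pre4, have no proteolytic site of their own. Their genes were pup3 (SPCC63.12c), with ratios of 0.44 and 0.24 on arrays 1 and 2, and pre1 (SPAC31A2.04c), with 0.25 and 0.39. Both were raised (adjusted p = 0.0414 and 0.0430), close to the threshold.

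Among the alpha subunits, pre5 (SPAC6G10.04c) was raised, with 13.79 and 13.85 in mga2Δ on arrays 1 and 2, against 13.32 and 13.15 in WT (mean ratio 0.58 ± 0.16, limma adjusted p = 0.00667). Both of its mga2Δ values lay above both WT values, as in 36.4% of all genes tested. The ratio was 0.47 on array 1 and 0.70 on array 2. The alpha genes pre8 (SPCC1442.06; 0.37 ± 0.04), pup2 (SPAC323.02c; 0.33 ± 0.04) and pre10 (SPCC1795.04c; 0.30 ± 0.04) were raised with similar ratios on both arrays. The pre10 call lay nearest the threshold of all 17 (adjusted p = 0.0474), and pre9 (SPAC13C5.01c) lay just outside it with nearly the same ratio (0.29 ± 0.07, adjusted p = 0.0532). The core gene with the lowest mean ratio was pre6 (SPBC106.16). It read 11.35 and 11.52 in mga2Δ, against 11.40 and 11.30 in WT, so the order of the strains differed between the arrays (0.09 ± 0.19, adjusted p = 0.550).

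**Figure D2:**
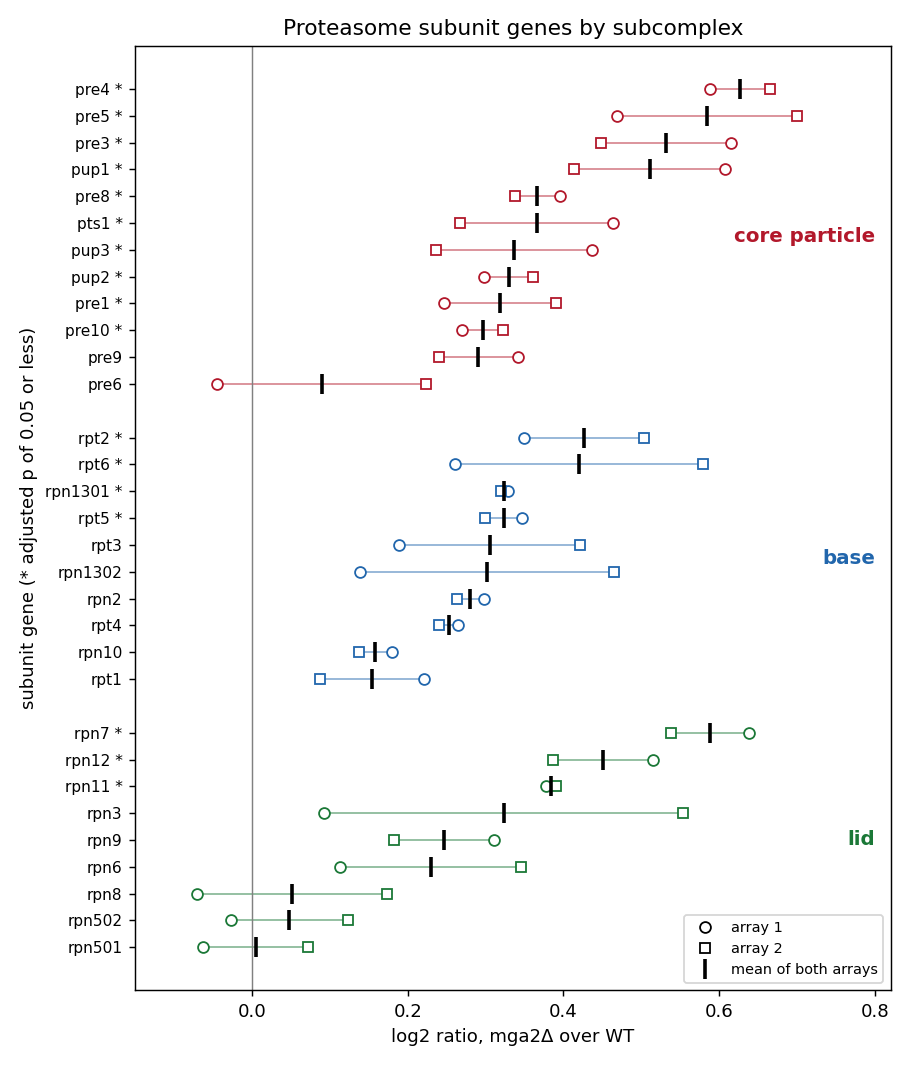
Log2 ratio of mga2Δ over WT (horizontal axis) for each of the 31 subunit genes, by subcomplex; circles are array 1, squares array 2 and bars the mean of both. Asterisks mark the 17 raised genes, 10 of them in the core particle; pre6, rpn8, rpn501 and rpn502 are the 4 genes with a ratio below 0 on array 1.

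In the base, 4 of 10 genes were raised (40.0%, against 18.4% of all genes tested). The median log2 ratio was 0.30, with a range from 0.15 to 0.43. In all 10, both mga2Δ values lay above both WT values, which was the case in 36.4% of all genes tested. Of the 6 ATPase genes, rpt2, rpt6 and rpt5 were raised. The rpt2 gene (SPBC4.07c), first isolated in fission yeast as mts2, read 13.32 and 13.44 in mga2Δ on arrays 1 and 2 and 12.97 and 12.93 in WT (mean ratio 0.43 ± 0.11, limma adjusted p = 0.0169). For rpt6 (SPBC23G7.12c, also let1) the values were 12.27 and 12.61 in mga2Δ, against 12.01 and 12.03 in WT. Its ratio on array 2 (0.58) was well above that on array 1 (0.26), and the mean was 0.42 ± 0.22 (adjusted p = 0.0290). The rpt5 gene (SPAC3A11.12c) had the steadier ratios of 0.35 and 0.30 (adjusted p = 0.0359). The remaining ATPase genes were positive on both arrays and did not pass: rpt3 averaged 0.31 ± 0.16, rpt4 0.25 ± 0.02 and rpt1 0.15 ± 0.09 (adjusted p from 0.0607 to 0.252).

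The other base genes encode the large scaffold subunit Rpn2 and ubiquitin receptors. The receptor Rpn13 has 2 related genes in this yeast. The first, rpn1301 (SPBC342.04), was raised, with 11.84 in mga2Δ on both arrays, against 11.51 and 11.52 in WT (0.32 ± 0.01, limma adjusted p = 0.0349). The second, rpn1302 (SPCC16A11.16c), had 12.91 and 12.90 in mga2Δ and 12.77 and 12.44 in WT. Its mean of 0.30 was nearly as large, but the arrays differed more (SD 0.23) and it did not pass (adjusted p = 0.0812). Neither rpn2 (0.28 ± 0.03, adjusted p = 0.0552) nor rpn10, the other ubiquitin receptor (0.16 ± 0.03, adjusted p = 0.227), passed the test.

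The lid genes were the most uneven, with 3 of 9 raised (33.3%, against 18.4% of all genes tested). Their median log2 ratio was 0.25 and their means ran from 0.005 to 0.59. The structural subunit gene rpn7 (SPBC582.07c) had the highest mean in this processing (with median centring rpn12 at 0.33 stood above rpn7 at 0.30), with 13.74 and 13.79 in mga2Δ on arrays 1 and 2, against 13.10 and 13.25 in WT (mean ratio 0.59 ± 0.07, limma adjusted p = 0.00458). The rpn12 gene (SPBC16G5.01, first known as mts3 in fission yeast) read 12.74 and 12.57 in mga2Δ and 12.23 and 12.19 in WT (0.45 ± 0.09, adjusted p = 0.0131). The deubiquitinase gene rpn11 (SPAC31G5.13, also pad1) read 12.44 and 12.52 in mga2Δ and 12.06 and 12.13 in WT. Its ratios of 0.38 and 0.39 hardly differed between the arrays (adjusted p = 0.0200). In each of these raised genes both mga2Δ values lay above both WT values, as in 36.4% of all genes tested.

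Against these stood lid genes with hardly any difference. The rpn8 gene (SPCC1682.10) encodes the partner that forms a pair with Rpn11. It read 11.03 and 11.42 in mga2Δ, against 11.11 and 11.25 in WT (0.05 ± 0.17, limma adjusted p = 0.737), so the strains overlapped. The subunit Rpn5 is encoded by 2 genes, rpn501 (SPAC1420.03) and rpn502 (SPAPB8E5.02c), and whether their probes tell the copies apart was not checked. The rpn501 probe read 10.79 and 10.95 in mga2Δ and 10.85 and 10.88 in WT, a mean ratio of 0.005 ± 0.10. The rpn502 probe read 10.86 and 11.18 in mga2Δ and 10.89 and 11.06 in WT (0.05 ± 0.11). Both were slightly negative on array 1 and slightly positive on array 2. The largest gap between arrays among the 31 genes was in rpn3 (SPBC119.01), a scaffold subunit, with ratios of 0.09 on array 1 and 0.55 on array 2 (0.32 ± 0.33, adjusted p = 0.0992). The remaining lid genes rpn9 (0.25 ± 0.09) and rpn6 (0.23 ± 0.16) were positive on both arrays and did not pass.

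**Figure D3:**
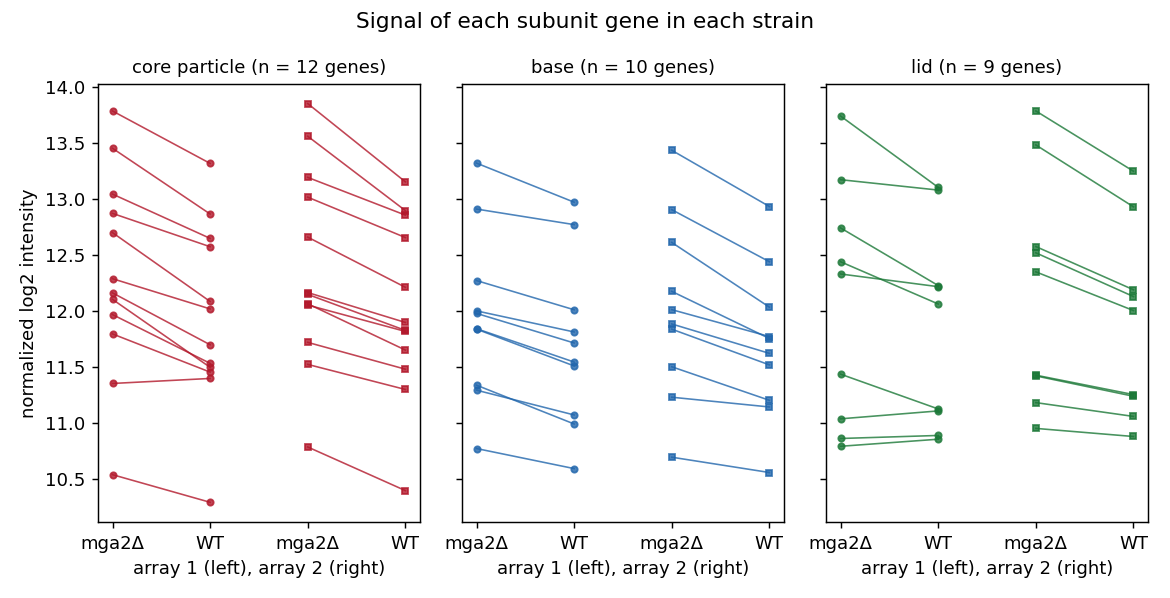
Normalized log2 intensity (vertical axis) of each subunit gene in mga2Δ and WT, joined by a line, for array 1 (circles) and array 2 (squares), in 3 panels for the core particle, base and lid. Nearly all lines slope down to WT; the 4 that do not lie on array 1, 1 in the core panel and 3 in the lid panel.

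The subcomplexes were ordered core particle, base, lid by their medians of 0.35, 0.30 and 0.25, but that order rested on array 1. There the medians were 0.42 for the core particle, 0.26 for the base and 0.11 for the lid. On array 2 they were 0.35, 0.31 and 0.35. The difference between the subcomplexes was not tested, because their genes are not replicates. The SD of the lid median between arrays, 0.16, was larger than the gap between the core and lid medians over both arrays. The ratio of Cy5 over Cy3 averaged over both arrays ranged from −0.23 for rpn3 to 0.10 for pup3 on the log2 scale. With 2 arrays, a dye effect in this value cannot be told apart from a difference between the replicates. By its calculation it is larger in size than the strain ratio wherever that ratio changes sign between the arrays, and smaller elsewhere. The sign changed in pre6, rpn8, rpn501 and rpn502 and not in the other 27 genes, so the dye value adds no separate observation there. For the catalytic genes pre3, pup1 and pts1 it was 0.08, 0.10 and 0.10. On array 2 all 31 genes had a ratio above 0.

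The ratio of the subunit genes varied with the brightness of their probes. All 31 probes were brighter than the median of all probes tested (log2 intensity 10.40), from pre1 just above it up to 13.53 for pre5, as means over strains and arrays. Across the 31 genes, which share both arrays, the mean ratio and the probe brightness had a Spearman's rho of 0.74 and a Pearson's r of 0.74. The 1973 other genes tested in that range of brightness had a median ratio of 0.01, and 18.9% of them were raised. Loess centres ratios near 0 at each brightness, so that median was largely set by the processing. With median centring in place of loess, the median of these other genes was −0.04. The part of brightness in the subunit genes' result was not tested. The lid probes had the highest median brightness (12.22, against 12.02 for the core particle and 11.79 for the base) and the lowest median ratio. Within the lid, however, the dimmest probes were rpn501 (10.87), rpn502 (10.99) and rpn8 (11.20), which also had its lowest ratios. The brightest lid probe, rpn7 (13.47), had its highest ratio.

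Subunit genes that carry other symbols were no more uniform. The base scaffold gene mts4, the fission yeast form of rpn1, was raised, with 13.29 and 13.38 in mga2Δ on arrays 1 and 2, against 12.88 and 12.97 in WT (0.41 ± 0.0036, limma adjusted p = 0.0156). The core subunit genes pam1 (0.30 ± 0.24, adjusted p = 0.0824) and scl1 (0.16 ± 0.01, adjusted p = 0.213) did not pass. The gene of the small lid subunit, dss1, was the one subunit gene with a negative ratio on both arrays, −0.15 and −0.23 (adjusted p = 0.165), and it did not pass. With these 4 genes added to the 31, 18 were raised.

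Lists of genes that work with the proteasome held some larger ratios. Of 11 genes for assembly and proteasome-associated factors, 3 were raised (27.3%, against 18.4% of all genes tested) and 0 lowered, with a median log2 ratio of 0.16. These were hul5, a ubiquitin ligase bound to the proteasome (0.88 ± 0.14, limma adjusted p = 0.000997), nas6, an assembly chaperone of the regulatory particle (0.71 ± 0.36, adjusted p = 0.00952), and ecm29, which bridges core and regulatory particle (0.30 ± 0.02, adjusted p = 0.0458). Not raised were the core assembly chaperone gene ump1 (0.14 ± 0.14, adjusted p = 0.331) and ubp6, a deubiquitinase that binds the base (0.18 ± 0.15, adjusted p = 0.223), both named here after their values were seen.

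In the list of 17 genes for ubiquitin and its activation and conjugation, 5 were raised (29.4%) and 0 lowered (median 0.19). The polyubiquitin gene ubi4 (SPBC337.08c) exceeded every subunit gene. It read 14.85 and 15.12 in mga2Δ on arrays 1 and 2, against 12.81 and 12.85 in WT, a mean ratio of 2.15 ± 0.16 (limma adjusted p = 2.8e-05) or 4.45-fold. The conjugating enzyme genes ubc8 (0.68 ± 0.22), ubc6 (0.59 ± 0.04) and ubc4 (0.53 ± 0.12) were raised as well, as was the ubiquitin-activating enzyme gene uba1 (0.38 ± 0.05), named outside the rule after its value was seen. The genes in which ubiquitin is fused to a ribosomal protein were named after their values were seen, and none passed. Their means were 0.32 for ubi3, 0.29 for ubi5, −0.02 for ubi1 and −0.19 for ubi2. Signals of ubi3 and ubi5 differed between arrays, with ratios of 0.60 and 0.63 on array 1 and 0.04 and −0.05 on array 2.

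Of 8 genes for Cdc48 and its cofactors, 7 were raised (87.5%, against 18.4% of all genes tested) and 0 lowered. Their median log2 ratio was 0.48. Cdc48 is the ATPase that extracts ubiquitinated proteins from membranes and complexes and passes them to the proteasome. Its gene read 14.70 and 15.13 in mga2Δ on arrays 1 and 2, against 13.93 and 14.01 in WT (0.94 ± 0.25, limma adjusted p = 0.00143). Next came the cofactor genes ubx2 (0.68 ± 0.21), ubx4 (0.57 ± 0.09) and ufd1 (0.49 ± 0.35). The gene that did not pass, named after its value was seen, was ufd2, a ubiquitin chain-elongating ligase (0.19 ± 0.17, adjusted p = 0.200). With median centring, 0 of the assembly genes, ubi4 alone of the ubiquitin genes and 0 of the Cdc48 genes were raised, against 2.94% of all genes tested.

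**Figure D4:**
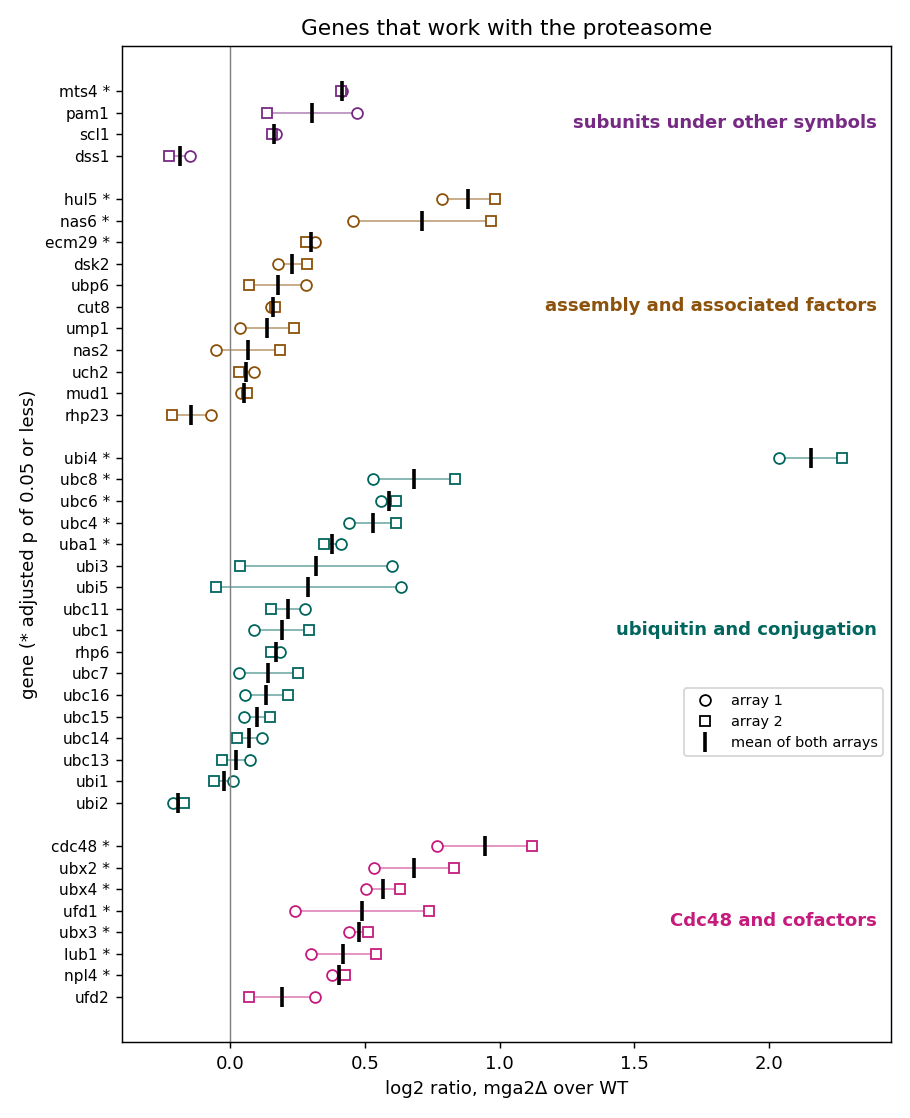
Log2 ratio of mga2Δ over WT (horizontal axis) for subunit genes under other symbols, assembly and associated factors, ubiquitin and conjugation genes, and Cdc48 with its cofactors; circles are array 1, squares array 2, bars the mean, and asterisks mark raised genes. The ubi4 gene stands apart at 2.04 and 2.27, and 7 of 8 Cdc48 genes are raised.

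The subunit genes are scattered over the genome, and none neighbours another among protein-coding genes in the RefSeq assembly ASM294v3. Of their 62 protein-coding neighbours, 61 were tested, with 12 raised (19.7%), 8 lowered and a median log2 ratio of −0.006, close to the values over all genes tested. The rpn3 gene lies next to ubc4. Each rpn5 copy lies beside a copy of a cox11 gene: rpn501 beside cox1101 and rpn502 beside cox1102. The probes of both cox11 copies were lowered in mga2Δ (−0.43, limma adjusted p = 0.0134, and −0.37, adjusted p = 0.0236), unlike the rpn5 probes. Whether the cox11 probes tell the copies apart was not checked either. These neighbours were named after their values were seen.

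The number of calls depended on the processing. Other background corrections and normalizations, and the deposited ratios, change the ratios themselves; under these the median of the 31 genes ranged from 0.23 to 0.45 and lay 0.25 to 0.33 above the median of all genes. Spike-in centring shifts all genes alike and moved the median of all genes to 0.13. The test and its prior were refitted after each change of the ratios, so the calls there do not follow from the ratios alone. With scale normalization, for instance, the median of the 31 genes stayed at 0.32 although more of them were raised. The filters, the priors and the pairing of channels leave the members' ratios as they are and bear on the calls alone. Raised genes numbered 0 with median centring, where the lowest adjusted p among the 31 was 0.245 by limma (0 of the 31 had an unadjusted p under 0.05). They numbered 7 with the authors' deposited ratios (15.1% of all genes), 4 when the prior degrees of freedom of the test were multiplied by 0.5 (9.93%), and 27 with spike-in centring (31.3%). With the scanner's processed signals 11 were raised (17.8%). The other settings gave 16 with a normexp offset of 16 (19.2%), 17 with no filter (18.4%) and with a strict one (18.3%), and 18 with no background correction (20.0%). They gave 19 with unpaired channels (19.8%), 21 with eBayes trend and robust settings (20.6%) and 22 with scale normalization (21.4%). At an adjusted p of 0.10, 24 passed (22.9%). None of these settings lowered a subunit gene, while they lowered 0.524% to 22.9% of all genes tested. With median centring the medians of the 31 genes were 0.34 on array 1 and 0.12 on array 2, and 27 of the 31 ratios were above 0 on both arrays. The genes pre3, pre4, pre5 and rpn7 were called in each setting except median centring, whereas pre6, rpn8, rpn501 and rpn502 were called in none.

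**Figure D5:**
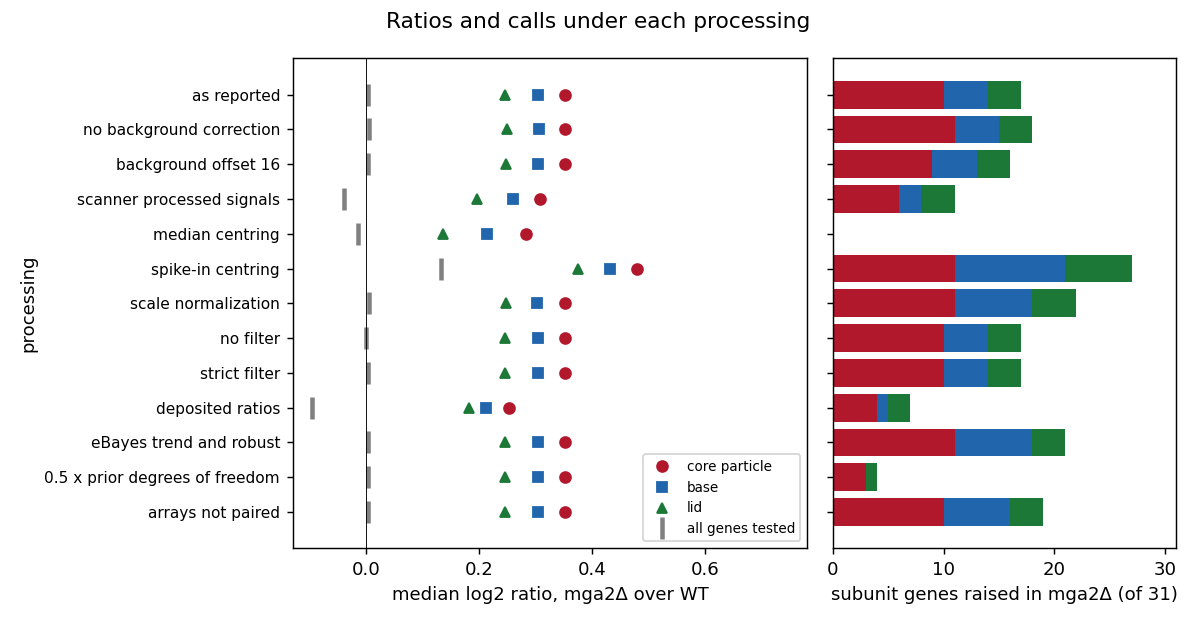
Left, median log2 ratio of mga2Δ over WT for the core particle, base and lid genes and for all genes tested (grey bars) under each processing; right, number of the 31 subunit genes raised, stacked by subcomplex in the same colours. The subcomplex medians lie above the median of all genes in each row, while the number raised runs from 0 with median centring to 27 with spike-in centring.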

How the data were processed

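RNA spike-ins were added and each RNA (400 ng) amplified from oligo-dT, per the labels' protocols. Median spot and background intensities, and a log10 ratio (Cy5 to Cy3), came from Agilent Feature Extraction 10.5.1.1, per the file headers. The authors' deposited value table holds a log2 ratio per probe, which runs as mga2Δ over WT (r = 0.986 with the scanner ratios on both arrays). Its column medians are −0.078 and −0.115, and no source used here says how it was normalized. The submitters' processing notes also name Partek.

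Background was corrected with normexp (offset 50) and arrays normalized by loess in limma 3.58.1 (R 4.3.3). Control and outlier spots had weight 0 and outlier spots were left out. The 3 spots of a probe were averaged and array 2 was sign-turned. A probe was tested if each array had at least 2 spots above background in some channel (4964 of 5057). Ratios were tested against 0 with lmFit and eBayes, two-sided, with 1 residual degree of freedom and Benjamini-Hochberg adjustment. Intensities per strain are after loess and Aquantile normalization. The 31 probes matched RefSeq symbols by locus tag. All subunit genes, mga2, sre1 and up to 4 called genes with the largest ratio from each of 3 lists (assembly, ubiquitin, Cdc48) are named by rule, with exceptions marked. List symbols that are aliases of members, name another gene or are missing from the annotation were dropped. The members and lists were chosen with earlier results of these data known. The test step alone was run on simulated ratios, without background correction, loess or spot averaging. In the median of 11 runs, 10% of genes changed 1.25-fold and 99% of genes changed 2-fold were recovered. Far fewer genes were changed there than the 915 raised and 541 lowered here, and the adjustment is then stricter. These shares therefore do not apply to the test here. Among the 31 genes, those near 1.25-fold fell on both sides of the threshold, such as rpn1301 (raised) and rpn3 (not raised). Both arrays lay on 1 slide, per the file headers, so no slide effect was tested. Mean spot signals were not used. A planned search of promoter motifs was not made.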

Additional observations from a re-analysis of the deposited data

How the results depend on the processing

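In the settings run, 0 subunit genes were lowered. With the scanner's processed signals 11 subunit genes were raised (6 of the core particle, 2 of the base) and the medians were 0.26 over all 31 and 0.26 for the base. With median centring 0 were raised in any subcomplex, and the medians were 0.23 over all, 0.28 for the core and 0.21 for the base. With spike-in centring 27 were raised (10 of the base, 6 of the lid), with medians of 0.45, 0.48 and 0.43. With the authors' deposited ratios 7 were raised (4 of the core, 1 of the base), with medians of 0.23, 0.25 and 0.21. With prior degrees of freedom of 2.81 instead of 5.62, 4 were raised (3 of the core, 0 of the base, 1 of the lid). Base genes raised numbered 7 with scale normalization and 7 with eBayes trend and robust settings. At 1.5-fold on both arrays 1 gene counted. Single arrays gave medians of 0.30 to 0.34 over all, 0.35 to 0.42 for the core, 0.26 to 0.31 for the base and 0.11 to 0.35 for the lid. With the strains' channel values unpaired, so that the array was no replicate block, 19 genes were raised. Counted with 1 gene per rpn5 and rpn13 pair, 17 were raised. The copy with the larger mean ratio in size was kept. The copies left out, rpn501 and rpn1302, had not passed, so this count could not change. Counting pairs once and including other symbols were choices made after seeing the data.

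Over all genes tested, 2.94% were raised with median centring, 31.3% with spike-in centring and 9.93% with the lower prior. Of the 11 assembly genes, 0 were raised with median centring, 6 with spike-in centring and 1 with the lower prior. Of the 17 ubiquitin genes, 1 was raised with median centring and 10 with spike-in centring. With the deposited ratios ubi2 was the 1 lowered, against 22.9% of all genes. Of the 8 Cdc48 genes, 0 were raised with median centring and 4 with the lower prior. Ratios near 0 turned sign: rpn501 to −0.045 with processed signals, −0.0074 with median centring and −0.055 with deposited ratios; rpn502 to −0.0086 and −0.011 and rpn8 to −0.0060 and −0.013 with processed signals and deposited ratios. With deposited ratios mud1 stood at −0.017, uch2 at −0.00035 and ubc13 at −0.077 (−0.064 with processed signals). These genes were named outside the rule after their values were seen. With median centring ubi3 stood at −0.37 and ubi5 at −0.45, and with spike-in centring ubi1 at 0.10. The cause of these shifts was not tested.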
